A study of Homo sapiens with 6 samples.

Results

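Expression of the forkhead (FOX) and SRY-related HMG-box (SOX) transcription factor genes was examined in HuCCT1 cells, an established human intrahepatic cholangiocarcinoma line, with and without forced expression of CD90. HuCCT1/CD90+ cells had been transduced with a human THY1-CMV-GFP lentivirus, in which the CMV promoter is named beside THY1 (which encodes CD90), and HuCCT1/CD90- cells with the blank vector Lenti-CMV-GFP-2A-Puro-Blank. Both vectors are thus named with GFP. Whether either is a single clone or a pool is not given in the sources used here, and the blank virus names a puromycin resistance that the THY1 virus does not. Each line gave 3 libraries, in which every gene is read over 1 amplicon and given as RPM, reads scaled to a common library total. Members were all genes whose symbol is FOX with a letter from A to S and a number, or SOX with a number, leaving out FOXA1, FOXA2, FOXC2, SOX9 and SOX17. They came to 62 genes, 45 FOX and 17 SOX, of the 20811 in the table.

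FOX proteins bind DNA through the forkhead or winged-helix domain, and some of them, the FOXA proteins above all, can open closed chromatin and so prepare liver and gut genes for use. FOXO proteins are held in the cytoplasm when AKT phosphorylates them, FOXM1 drives genes of mitosis, FOXJ1 builds motile cilia and FOXP proteins mostly repress. SOX proteins bind a short motif in the minor groove through their HMG box, bend the DNA and usually work beside a partner factor. In bile ducts the SOX family is best known through SOX9, which is not a member here, while the SOXF proteins SOX7, SOX17 and SOX18 are best known from blood vessels.

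The libraries held 8587634 to 10551516 reads on genes, so that 3 reads stand for 0.284 to 0.349 RPM. This was taken as the floor, and a gene at 3 reads or fewer in every library of a line is called at the floor there. THY1 itself was at 0, 0.107 and 0 RPM in HuCCT1/CD90- replicates 1, 2 and 3 and at 46.6, 51.8 and 73.8 RPM in HuCCT1/CD90+, at least 179-fold higher, as the labels say. The biliary keratins KRT7, KRT19, KRT8 and KRT18 had means of 645 to 4146 RPM in both lines. Genes of other cell types were mixed. ALB and TTR of hepatocytes, PTPRC of leukocytes and KDR of endothelium were at the floor in both lines, while APOA1, CD14, LYZ, CDH5, TIE1 and PECAM1 of the same marker lists averaged 2.18 to 80.8 RPM in the blank line and 0.221 to 4.32 RPM in the CD90+ line. A gene was called when limma's test on log2(RPM + 1) gave a p of at most 0.05 after Benjamini-Hochberg adjustment over the whole table and the lines differed by at least 1.5-fold on that scale. The log2 differences are HuCCT1/CD90+ minus HuCCT1/CD90-, and understate the change of low genes. Nothing in the labels says that the libraries came from separate cultures, so p-values measure only the spread between these libraries. In bulk RNA, fewer cells that express a gene and less RNA per cell cannot be told apart.

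SOX genes were lower in HuCCT1/CD90+ wherever they were called. SOX7, SOX13, SOX12 and SOX18 fell, which is 4 of 17 or 23.5%, beside 7.49% of all genes called lower. No SOX gene was called higher: the count was 0 by limma, 0 at an unadjusted p of at most 0.05, 0 by edgeR and 0 by DESeq2, beside 7.59% of all genes called higher. Among the FOX genes FOXS1, FOXP1 and FOXD2 were called lower and FOXJ1 higher, which makes 6.67% and 2.22% of the 45. Whether the families differed in this was not tested. In all 8 of the 62 members were called, or 12.9%, against 15.1% of all genes. With the replicate number as a block in limma, which treats same-numbered libraries as pairs, 2 SOX genes were called lower, SOX7 and SOX18, while SOX13 and SOX12 were not (adjusted p 0.0503 and 0.0609). That fit also lost FOXS1 and FOXJ1 (0.0523 and 0.136) and added FOXA3 as higher, and over all genes it called 1011 lower and 1091 higher, where the fit without the block called 1558 and 1580. The median log2 difference was 0.00 for the FOX genes, -0.04 for the SOX genes and 0.00 for all genes tested, and genes with few or no reads weigh on all of these. In each of the 8 called genes the 3 libraries of one line lay wholly apart from the 3 of the other. The genes were chosen by that difference, so this adds no support to the calls. Among the 14098 genes of the table above the floor in a line, 50.4% did not overlap.

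**Figure D1:**
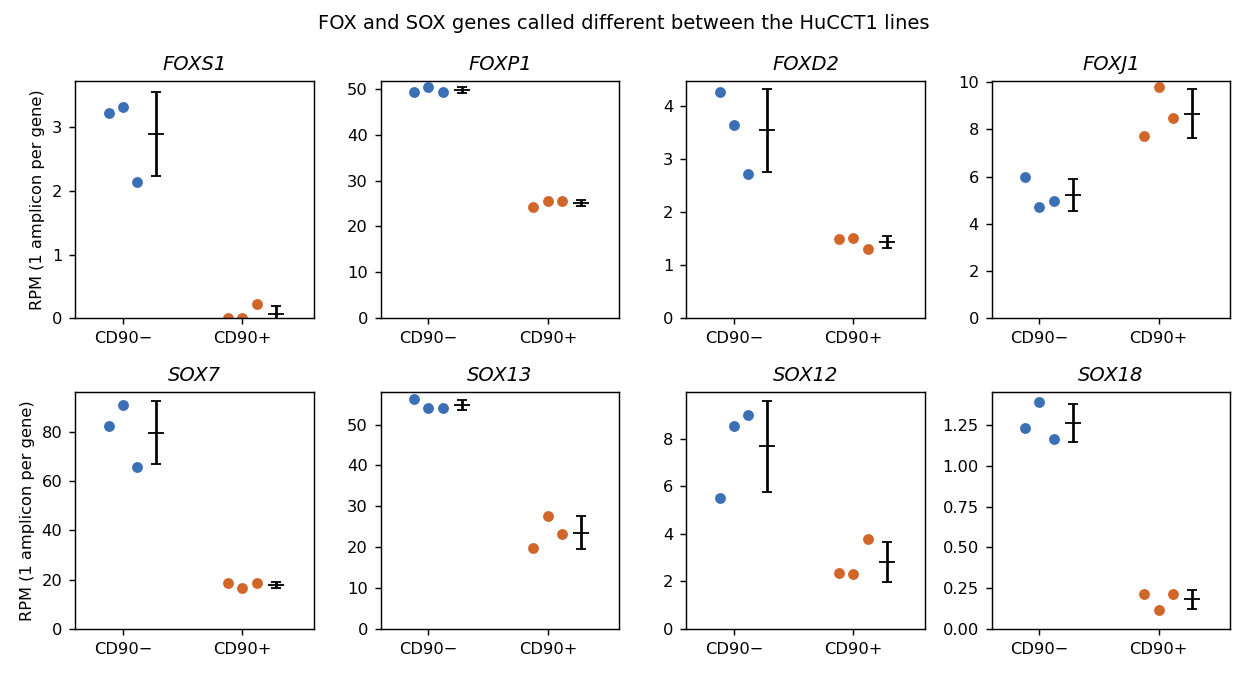
Level in RPM, each over 1 amplicon, of the 8 FOX and SOX genes called different, in the 3 HuCCT1/CD90- libraries (blue) and the 3 HuCCT1/CD90+ libraries (orange), with mean and SD as black bars cut off at 0. Each panel has its own axis from 0. FOXJ1 is the gene with higher points in HuCCT1/CD90+, and in the other 7 the orange points lie below the blue ones.

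Promoter sequence was at hand for some of the called genes, and 4 windows are shown so that the genes that fell can be compared at their start sites. The windows are from RefSeq on GRCh38.p14, reach from 250 bases before to 50 bases after an annotated start, and are written 5′ to 3′ on the strand of the gene. SOX12 lies at chr20:325302-325601 on the plus strand, SOX13 at chr1:204072865-204073164 on the plus strand, FOXD2 at chr1:47437794-47438093 on the plus strand and FOXP1 at chr3:71583679-71583978 on the minus strand, the last being the farthest upstream of 6 annotated windows. Capitals mark the forkhead core TGTTTAC, the SOX core ACAATG and the GC box GGGCGG, each on either strand.
SOX12: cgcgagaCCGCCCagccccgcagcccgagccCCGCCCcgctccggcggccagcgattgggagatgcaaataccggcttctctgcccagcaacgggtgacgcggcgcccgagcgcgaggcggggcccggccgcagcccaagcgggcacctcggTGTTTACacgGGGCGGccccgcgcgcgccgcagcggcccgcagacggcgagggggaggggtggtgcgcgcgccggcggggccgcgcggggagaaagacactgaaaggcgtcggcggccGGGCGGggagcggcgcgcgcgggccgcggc
SOX13: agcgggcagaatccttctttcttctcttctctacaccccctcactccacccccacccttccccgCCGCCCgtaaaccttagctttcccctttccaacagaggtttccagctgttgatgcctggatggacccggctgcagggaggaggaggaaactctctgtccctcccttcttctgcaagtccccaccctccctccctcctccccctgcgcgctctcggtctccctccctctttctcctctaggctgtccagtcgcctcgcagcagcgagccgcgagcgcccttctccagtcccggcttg
FOXD2: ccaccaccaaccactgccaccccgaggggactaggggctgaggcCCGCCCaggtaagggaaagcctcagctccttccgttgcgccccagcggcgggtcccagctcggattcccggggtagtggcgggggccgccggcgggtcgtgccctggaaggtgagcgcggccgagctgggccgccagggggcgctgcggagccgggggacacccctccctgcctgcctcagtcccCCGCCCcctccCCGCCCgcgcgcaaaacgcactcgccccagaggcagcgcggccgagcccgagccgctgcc
FOXP1: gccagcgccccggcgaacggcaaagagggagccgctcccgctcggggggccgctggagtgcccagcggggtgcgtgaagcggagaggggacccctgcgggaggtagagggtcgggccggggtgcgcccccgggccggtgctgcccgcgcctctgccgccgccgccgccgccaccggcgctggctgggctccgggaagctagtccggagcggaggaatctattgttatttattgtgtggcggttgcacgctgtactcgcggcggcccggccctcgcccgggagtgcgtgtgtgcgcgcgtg

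SOX12 holds the only forkhead core of these windows, at bases 153 to 159, with 4 GC boxes. The forkhead core occurs in 3.42% of the 35116 windows of all genes and in 4 of the 62 windows of members, which belong to FOXO4, FOXP1 (a more downstream start), SOX12 and SOX6. The SOX core occurs in 10.8% of all windows and in none of the windows shown. GC boxes, found in 45.0% of all windows, number 3 in FOXD2 and 1 in SOX13, and this start of FOXP1 has none. TATAAA, present in 11.5% of all windows, was in none of the windows shown. The bases are rich in G and C, at 80.3% in SOX12, 76.7% in FOXD2, 75.0% in FOXP1 and 62.7% in SOX13. CCAAT, which 34.6% of all windows hold on either strand, was found in SOX12 alone of these. These are matches of letters and say nothing on what binds there, and the amplicons do not tell which start was used.

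Among the SOXF genes, SOX7, which directs the formation of endothelial and blood cells and can hold back β-catenin, had the largest log2 difference of the SOX genes. It stood at 82.4, 90.8 and 65.6 RPM in the HuCCT1/CD90- libraries and at 18.7, 16.5 and 18.7 RPM in the HuCCT1/CD90+ libraries. The lowest blank library was thus well above the highest CD90+ library. Its means were 79.6 ± 12.9 and 17.9 ± 1.23 RPM (SD, n = 3 each), which is 4.43-fold lower, with a log2 difference of -2.08 (SE 0.14, limma adjusted p = 0.0021). The call held under all 18 alternatives. SOX18, its close relative in vessels and lymphatics, was low in both lines, at 1.23, 1.39 and 1.16 RPM against 0.214, 0.116 and 0.217 RPM. Those are 13, 13 and 12 reads against 2, 1 and 2 reads, so HuCCT1/CD90+ was at the floor. SOX18 was at least 3.61-fold lower (log2 difference -0.94, SE 0.06, limma adjusted p = 0.0017), a call that an offset of 5 RPM and a minimum fold of 2 each ended.

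Genes that SOXF proteins are known to act on in endothelium were looked at beside them. Of 9 such genes, 4 were called lower, 0 higher, and 3 were at the floor in both lines. Over all genes 7.49% were called lower and 7.59% higher, the shares to set beside this list and the later ones. Whether any list differed from them was not tested. CDH5, the cadherin of endothelial junctions, was at 13.4, 16.8 and 19.7 RPM in the blank line and at 0.429, 0.233 and 0.217 RPM in HuCCT1/CD90+, 56.7-fold lower (log2 difference -3.76, limma adjusted p = 0.0008). VCAM1, an adhesion molecule for leukocytes, was 9.69-fold lower, with means of 9.32 and 0.962 RPM (log2 difference -2.40, limma adjusted p = 0.0023). The neuropilin NRP2 and the guidance receptor ROBO4 were the other members called, at log2 differences of -1.40 and -1.12. With the replicate number as a block their limma adjusted p became 0.0543 and 0.0555. NRP2 passed only without HuCCT1/CD90- replicate 1 among the fits that left out 1 library (adjusted p 0.0058 to 0.0968), and so did ROBO4 (0.0345 to 0.142). EGFL7 and TEK were not called. EGFL7 went the other way, from 1.07 to 2.28 RPM on average without overlap of the lines (log2 difference 0.68, limma adjusted p = 0.15). TEK averaged 0.262 and 0.364 RPM (log2 difference 0.10). The median log2 difference of the list was 0.00, as for all genes.

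Of the 5 markers of endothelium, CDH5, which is also among the targets above, and TIE1 were called lower like SOX7 and SOX18, and none was called higher. PECAM1, at means of 2.18 and 0.527 RPM, and VWF, with 0 reads in the blank libraries and 1, 3 and 4 in HuCCT1/CD90+, were not called (log2 differences -1.03 and 0.37, adjusted p = 0.14 and 0.091 in limma), and KDR was at the floor in both lines. The summed level of the list ran from 17.7 to 26.7 RPM in the blank libraries and from 0.965 to 1.98 RPM in HuCCT1/CD90+. Their part in the SOX7 and SOX18 differences was not tested.

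SOX13, a SOXD protein with no activation domain of its own that can bind TCF factors, was at 56.2, 54.0 and 53.9 RPM in the blank line and at 19.7, 27.7 and 23.1 RPM in the CD90+ line. The blank libraries were nearly level, and all 3 CD90+ libraries lay below them. The means were 54.7 ± 1.28 and 23.5 ± 4.01 RPM (SD, n = 3), or 2.33-fold lower, with a log2 difference of -1.20 (SE 0.13, limma adjusted p = 0.0074). When the fit took the replicate number as a block, the adjusted p was 0.0503. SOX13 is on chromosome 1, whose genes that averaged 10 RPM or more had a median log2 difference of -0.32, and the call remained when that median was taken off. The other SOXD genes, SOX5 and SOX6, had at most 5 reads in any library.

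SOX12, a SOXC protein like SOX4 and SOX11 and an activator in developing nervous and mesenchymal tissue, was at 5.50, 8.56 and 9.02 RPM in HuCCT1/CD90- against 2.36, 2.33 and 3.80 RPM in HuCCT1/CD90+. The lines did not overlap, but HuCCT1/CD90- replicate 1 stood closer to the CD90+ libraries than the other two. The fold was 2.72 lower and the log2 difference -1.18 (SE 0.25, limma adjusted p = 0.041). This call was lost with the replicate block (adjusted p 0.0609). Among the 6 fits that left out a library it held only without HuCCT1/CD90- replicate 1 (adjusted p 0.0394 to 0.126). SOX4, a stemness-linked SOXC factor active in many carcinomas, had means of 11.2 ± 2.40 and 8.81 ± 0.270 RPM (SD, n = 3) and did not pass (log2 difference -0.29, 95% interval -0.70 to 0.11). SOX11 had no reads.

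The remaining SOX genes were barely read. SOX15, SOX21 and SOX6 were above the floor in a blank library and were at the floor in every CD90+ library, at means of 0.228 to 0.356 RPM against 0.0723 to 0.0777 RPM, and none passed. SOX1, SOX10, SOX11, SOX14 and SOX30 had no read in any library, and SOX2, SOX3, SOX5 and SOX8 no more than 2. SOX2 and SOX10, regulators of stem cells and of neural crest, were thus not detectable at this depth. Summed over all SOX genes, the level was 157, 169 and 140 RPM in the blank line and 49.7, 56.0 and 55.3 RPM in the CD90+ line, and SOX7 and SOX13 made up most of it.

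SOX partners and the HMG-box relatives TCF and LEF were mixed. Of 13 genes, 1 was called higher and 2 lower, beside 7.59% and 7.49% of all genes. LEF1, which carries β-catenin to Wnt target genes, was at 3.41, 5.35 and 3.30 RPM in the blank libraries and had no read in the 3 CD90+ libraries, at least 11.5-fold lower (log2 difference -2.30, limma adjusted p = 0.0027). CTNNB1, the gene of β-catenin, was 2.04-fold lower, at 929 against 455 RPM on average (log2 difference -1.03, adjusted p = 0.0048). TCF7L2, another β-catenin partner, went the other way, from 14.5 to 43.7 RPM on average (log2 difference 1.54, adjusted p = 0.043). That last call held in 1 of the 6 fits that left out a library, the one without HuCCT1/CD90- replicate 2 (adjusted p 0.0427 to 0.126).

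In cartilage, SOX5, SOX6 and SOX9 drive a set of matrix genes, of which 11 were looked at. HAPLN1, the link protein of hyaluronan and aggrecan, was called lower, at 304, 220 and 278 RPM against 64.3, 47.7 and 59.4 RPM, 4.68-fold (log2 difference -2.21, limma adjusted p = 0.0033). None was called higher and 6 were at the floor in both lines. Among 10 targets known from glia and melanocytes 5 were at the floor in both lines. ERBB3, a neuregulin receptor, rose 4.97-fold, from 13.4 to 66.8 RPM on average (log2 difference 2.26, adjusted p = 0.0069). PMP22, a myelin and junction protein, fell 2.93-fold, from 44.7 to 15.3 RPM on average (adjusted p = 0.0028). Both lists had a median log2 difference of 0.00.

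Turning to the FOX genes, FOXP1, a repressor in B cells, lung and heart, had the smallest SE of the called members. It was at 49.3, 50.4 and 49.3 RPM in the blank line and at 24.3, 25.5 and 25.6 RPM in the CD90+ line. Within each line the libraries were nearly equal. The means were 49.7 ± 0.645 and 25.1 ± 0.706 RPM (SD, n = 3), 1.97-fold lower, with a log2 difference of -0.95 (SE 0.02, limma adjusted p = 0.0003). Apart from a minimum fold of 2, all of the 18 alternatives kept the call. FOXP4, the other FOXP gene above the floor, was higher in every CD90+ library, at 44.8, 45.9 and 41.7 RPM against 28.7, 34.4 and 26.2 RPM. Its adjusted p of 0.037 passed, but its log2 difference of 0.56 (SE 0.11) fell short of the 1.5-fold required. It was called without HuCCT1/CD90- replicate 2 (log2 difference 0.67, adjusted p = 0.0193) and after the median of chromosome 6, which was -0.30, was taken off. FOXP2 and FOXP3, known from speech and from regulatory T cells, had no reads.

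FOXP and other FOX and SOX repressors recruit corepressors. Of 14 such genes 3 were called lower and 0 higher, beside 7.49% and 7.59% of all genes. TLE4, a Groucho corepressor, was at 33.8, 35.4 and 42.9 RPM in the blank libraries and at 1.93, 2.56 and 2.82 RPM in HuCCT1/CD90+, 15.3-fold lower (log2 difference -3.48, limma adjusted p = 0.0008). GATAD2B, a subunit of the NuRD complex that FOXP proteins bind, was 2.03-fold lower, at 94.96 against 46.75 RPM on average (log2 difference -1.01, adjusted p = 0.0005). TLE3 completed the count, at 51.4 against 30.1 RPM, and passed in 2 of the 6 fits that left out a library, without HuCCT1/CD90- replicate 1 or 2 (adjusted p 0.0239 to 0.0828). Other genes of the list went the other way without being called. TLE2 had 1, 0 and 1 reads in the blank libraries and 7, 4 and 5 in HuCCT1/CD90+. Its limma adjusted p of 0.016 passed, but its log2 difference of 0.57 was under 1.5-fold. AES averaged 309 and 404 RPM (log2 difference 0.38, limma adjusted p = 0.051). The median log2 difference of the list was -0.23.

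FOXS1, known from neural crest derivatives and perivascular cells, was at 3.22, 3.32 and 2.13 RPM in the blank line and at 0, 0 and 0.217 RPM in the CD90+ line. The CD90+ line was therefore at the floor. FOXS1 was at least 8.28-fold lower (log2 difference -1.85, SE 0.17, limma adjusted p = 0.0046), and with the replicate block the adjusted p was 0.0523. It shares chromosome 20 with SOX12 and SOX18, and the genes of that chromosome that averaged 10 RPM or more had a median log2 difference of 0.11.

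FOXD2, active in kidney and paraxial mesoderm, was at 4.26, 3.64 and 2.72 RPM against 1.501, 1.514 and 1.302 RPM, 2.46-fold lower (log2 difference -0.88, SE 0.14, limma adjusted p = 0.021). Although the lines did not overlap, the call was lost without HuCCT1/CD90- replicate 2 and without any 1 of the CD90+ libraries, the adjusted p of the 6 such fits running from 0.0138 to 0.0828. An offset of 5 RPM, quantile normalization and a minimum fold of 2 ended it too, and it held when the median of chromosome 1 was taken off. FOXD2-AS1, the antisense neighbour, averaged 5.86 and 3.13 RPM and was not called (log2 difference -0.70, adjusted p = 0.12). Whether reads were counted by strand is not given in the sources used here, so the pair may share reads where they overlap. The FOXD4 genes are near-identical copies, and their values are uncertain for that reason. FOXD4, FOXD4L1, FOXD4L5 and FOXD4L6 averaged 0.440 to 2.01 RPM and none was called.

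FOXJ1, the master regulator of motile cilia, was the member called higher, at 5.97, 4.71 and 4.95 RPM in the blank line and at 7.72, 9.78 and 8.46 RPM in the CD90+ line. All 3 CD90+ libraries were above all 3 blank ones. The fold was 1.66 and the log2 difference 0.64 (SE 0.12, limma adjusted p = 0.030). The call held under 10 of 18 alternatives, the fewest of the 8. The adjusted p was 0.136 with the replicate block, and among the fits that left out 1 library the call held only without HuCCT1/CD90- replicate 1 (adjusted p 0.0385 to 0.1). Genes of motile cilia were looked at beside it. Of the 17 measured, 12 were at the floor in both lines, 0 were called higher, and the factor RFX3 fell 1.81-fold, from 15.3 to 8.44 RPM on average (log2 difference -0.79, adjusted p = 0.010). The relatives FOXJ2 and FOXJ3 were read at 22.0 to 49.9 and 31.3 to 41.8 RPM and were not called.

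**Figure D2:**
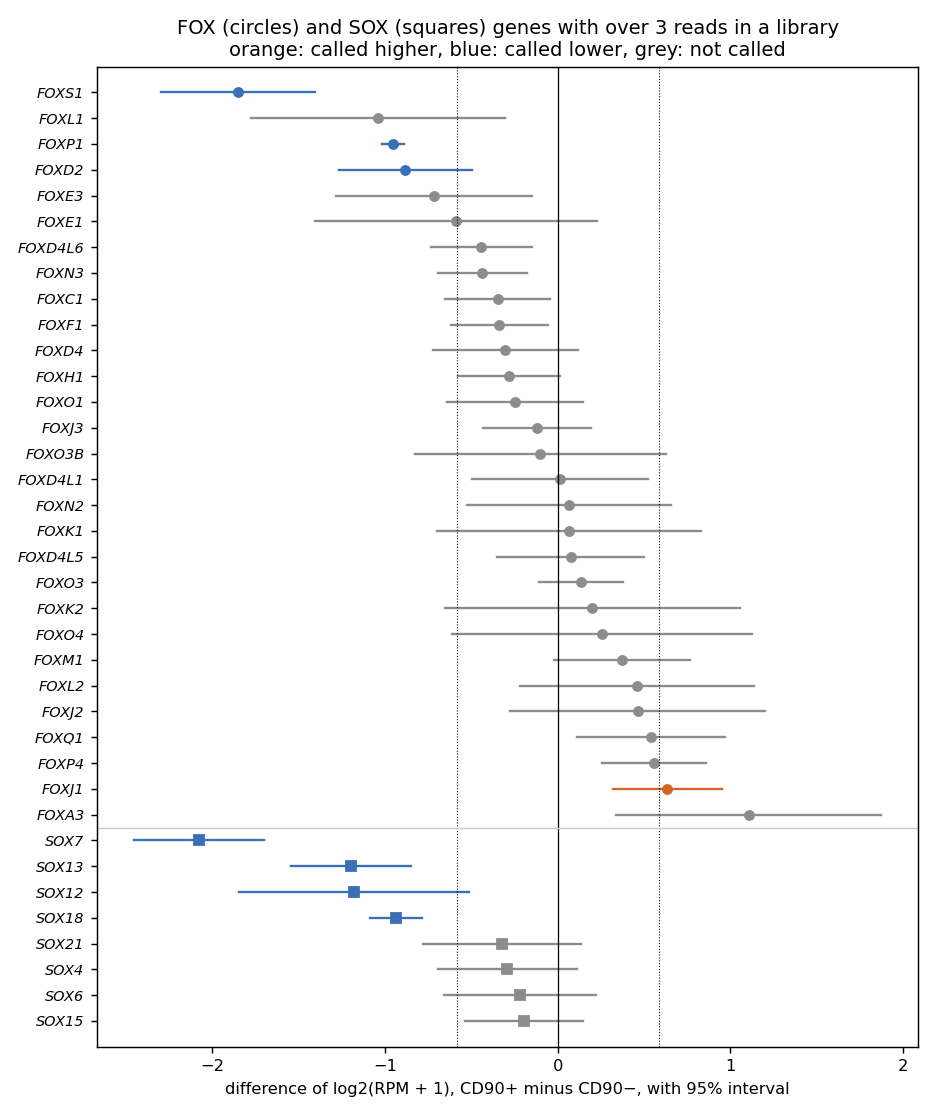
Difference of log2(RPM + 1), HuCCT1/CD90+ minus HuCCT1/CD90-, with its 95% interval from limma for members with over 3 reads in a library, FOX as circles and SOX as squares. Dotted lines mark 1.5-fold. Orange and blue points were called higher and lower, and FOXL1 and FOXA3 are grey points with wide intervals beyond the dotted lines.

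FOXL1, a factor of gut mesenchyme that also marks progenitor cells of injured liver, showed a large difference without passing. It was at 143.6, 235.2 and 242.7 RPM in the blank line and at 84.0, 121 and 90.8 RPM in the CD90+ line. The lines did not overlap, with HuCCT1/CD90- replicate 1 the nearest to the other line. The means were 207 ± 55.2 and 98.7 ± 19.8 RPM (SD, n = 3), a log2 difference of -1.04 (95% interval -1.78 to -0.30, limma adjusted p = 0.072). It lies on chromosome 16, whose median log2 difference was -0.31, and was not called with that median taken off. It was called in 6 of 18 alternatives, among them edgeR and DESeq2 on whole reads and the fit without HuCCT1/CD90- replicate 1 (log2 difference -1.29, adjusted p = 0.0376). FOXA3, a liver and gut factor whose relatives FOXA1 and FOXA2 are not members, is described because it had the largest positive log2 difference of the members, a choice made after its values were seen. It was at 6.16, 3.53 and 4.27 RPM against 14.6, 7.92 and 11.3 RPM, which did not overlap (log2 difference 1.11, 95% interval 0.34 to 1.88, adjusted p = 0.068). The replicate block called it higher (adjusted p 0.0251), as did edgeR, DESeq2 and 3 further alternatives of the 18.

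Of 6 fibroblast markers 5 were called lower, like FOXS1, and none was at the floor in both lines, while COL1A1, at 13.5 against 14.2 RPM on average, was not called. The summed level was 41.8 to 64.9 RPM in the blank line and 20.3 to 24.7 RPM in the CD90+ line. Of the leukocyte markers CD14 and LYZ were called lower, with PTPRC and CD3E at the floor in both lines, and of the biliary markers KRT18 and EPCAM were called higher. Of the hepatocyte markers APOA1 was called lower and the other 4 were at the floor in both lines, and none of 5 neural and glial markers was called. Whether any of these has a part in the FOX and SOX differences was not tested.

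Of the 12 FOX genes that averaged 10 RPM or more 11 were not called, and FOXP1 is the exception. At that level both SOX genes, SOX7 and SOX13, were called, as were 21.7% of the 8794 genes of the whole table. FOXM1, which drives mitotic genes, averaged 113 ± 17.2 RPM in the blank line and 146 ± 16.6 RPM in the CD90+ line (SD, n = 3). The lines overlapped, and the log2 difference was 0.37 (95% interval -0.02 to 0.76, limma adjusted p = 0.18). Its 16 listed targets were split, with 1 called higher and 1 lower. CENPA, the centromeric histone, averaged 22.1 and 37.7 RPM (log2 difference 0.74, adjusted p = 0.038), and CDC25B, a phosphatase that activates cyclin-dependent kinases, averaged 416 and 208 RPM (log2 difference -0.98, adjusted p = 0.017). With the replicate block neither passed (adjusted p 0.0761 and 0.0549). Without 1 library CENPA passed in 1 of 6 fits, that without HuCCT1/CD90+ replicate 2 (adjusted p 0.0337 to 0.119), and CDC25B in 2, those without HuCCT1/CD90- replicate 1 or 2 (0.0037 to 0.0661).

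None of the 4 FOXO genes was called. FOXO3, which acts in stress resistance and cell death, averaged 96.7 ± 5.18 and 107 ± 10.8 RPM (SD, n = 3), a log2 difference of 0.14 with a 95% interval of -0.11 to 0.38. FOXO1, the insulin-regulated factor of liver, averaged 14.0 and 11.8 RPM (log2 difference -0.25, 95% interval -0.64 to 0.15). FOXO4 averaged 7.59 and 9.29 RPM and FOXO3B 7.473 and 6.999 RPM. FOXO3B is nearly identical to FOXO3 over much of its length, so the split of reads between these is uncertain. In FOXO1 the lines did not overlap, and in the other three they did.

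Genes that FOXO factors are known to switch on moved in both directions. Of 21 targets 5 were called higher and 3 lower, beside 7.59% and 7.49% of all genes, with a median log2 difference of 0.07. ERBB3, described above, and KLF6, a zinc-finger growth suppressor that went from 58.1 to 135 RPM on average (log2 difference 1.20, limma adjusted p = 0.0027), rose most. PIK3IP1, CDKN1B and GADD45A complete the 5, at log2 differences of 1.14, 1.10 and 0.81, and the last was lost with the replicate block (adjusted p 0.0564) and without any 1 library (adjusted p 0.0608 to 0.146). FBXO32, the muscle ubiquitin ligase atrogin, fell from 16.2 to 3.12 RPM on average (log2 difference -2.04, adjusted p = 0.024) and TXNIP, an inhibitor of thioredoxin and glucose uptake, from 368 to 121 RPM (log2 difference -1.61, adjusted p = 0.017). Among the fits that left out a library FBXO32 passed in 1, without HuCCT1/CD90- replicate 1 (adjusted p 0.0223 to 0.0828), and TXNIP in 2, without HuCCT1/CD90- replicate 1 or HuCCT1/CD90+ replicate 2 (0.0261 to 0.0667). BCL2L11, the death gene also called BIM, was the third to fall, at a log2 difference of -0.68.

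Of the 18 genes that control FOXO factors, 2 were called higher and 1 lower, beside 7.59% and 7.49% of all genes. The kinase SGK3, which phosphorylates FOXO proteins, was at 6.63, 5.78 and 5.43 RPM in the blank libraries and at 16.4, 18.2 and 20.8 RPM in HuCCT1/CD90+, 3.11-fold higher (log2 difference 1.48, limma adjusted p = 0.0029). Its relative SGK2 averaged 0.378 and 2.62 RPM (log2 difference 1.42, adjusted p = 0.014) and passed in 3 of the 6 fits that left out a library, failing without HuCCT1/CD90- replicate 3 or HuCCT1/CD90+ replicates 2 or 3 (0.0103 to 0.0605). PIK3R1, the regulatory subunit of PI3-kinase, was 1.78-fold lower, at 39.4 against 22.1 RPM (log2 difference -0.79, adjusted p = 0.028). With the replicate block its adjusted p was 0.067, and without 1 library it passed only without HuCCT1/CD90- replicate 2 (0.0116 to 0.0976). The median log2 difference of the list was 0.04.

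**Figure D3:**
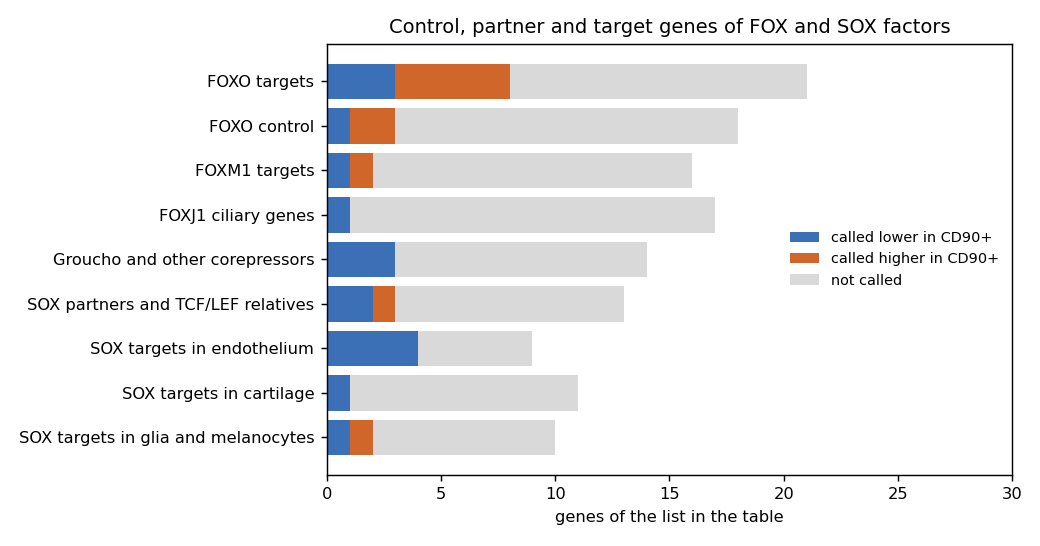
Number of genes called lower (blue), called higher (orange) and not called (grey) in HuCCT1/CD90+ for the 9 lists of control, partner and target genes of FOX and SOX factors, on an axis of genes in the table. FOXO targets have both colours, 5 higher and 3 lower of 21, and the corepressors and the endothelial targets have blue alone, 3 of 14 and 4 of 9.

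The forkhead genes FOXK1 and FOXK2, repressors of autophagy genes, varied as much within a line as between lines. FOXK1 ran from 91.2 to 132 RPM in the blank line and from 79.1 to 146 RPM in the CD90+ line (log2 difference 0.07, 95% interval -0.70 to 0.83, and -0.48 with the median of chromosome 7, 0.55, taken off). FOXK2 ran from 7.81 to 18.7 RPM and from 13.6 to 15.2 RPM (0.20, -0.65 to 1.06). FOXN2 averaged 11.0 and 11.5 RPM. FOXN3, a checkpoint repressor, was lower in every CD90+ library, at 13.5, 16.9 and 15.6 RPM against 10.9, 11.8 and 10.4 RPM, with an adjusted p of 0.046 and a log2 difference of -0.44 that was under 1.5-fold. Its antisense gene FOXN3-AS1, not a member, was called higher, from 5.70 ± 0.947 to 15.1 ± 1.01 RPM (SD, n = 3; log2 difference 1.27, limma adjusted p = 0.0056). The 95% intervals of FOXK1 and FOXK2 include differences of over 1.5-fold in both directions, so such changes are not excluded. That of FOXN2, -0.53 to 0.66, leaves only a rise of that size open.

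**Figure D4:**
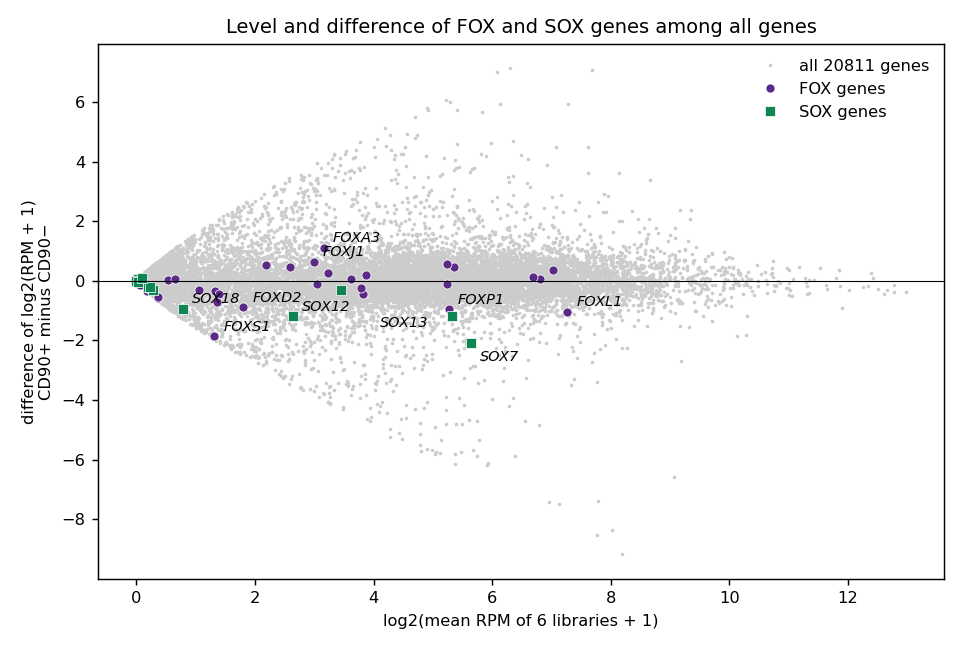
Mean level over the 6 libraries as log2(mean RPM + 1) on the horizontal axis and difference of log2(RPM + 1), HuCCT1/CD90+ minus HuCCT1/CD90-, on the vertical axis, for all 20811 genes (grey), FOX genes (purple circles) and SOX genes (green squares). SOX7 and SOX13 lie lowest among the well-read members, FOXL1 is the labelled purple point farthest to the right, and most members are near 0 on the vertical axis.

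Further FOX genes were read at low levels. FOXL2, FOXQ1, FOXE3 and FOXC1 averaged 0.927 to 6.02 RPM in either line and were not called, although in each of them the lines did not overlap. FOXQ1, linked to mesenchymal change in carcinomas, was called without HuCCT1/CD90+ replicate 3 (adjusted p 0.0056) and in no other fit that left out a library. FOXE3, 2.39-fold lower, was called in 4 of 18 alternatives. These were a mean of at least 1 RPM, median centring, edgeR and an unadjusted p. FOXE1, FOXF1 and FOXH1 were above the floor in a blank library and at the floor in HuCCT1/CD90+. So were SOX15, SOX18, SOX21, SOX6 and FOXS1. In all 9 of the 62 members were at the floor in HuCCT1/CD90+ alone and 0 in HuCCT1/CD90- alone, beside 736 and 637 of the 20811 genes of the whole table. Such genes count as above the floor only through the line where they are high, and the 38 members counted below include them. The other 15 FOX genes were at the floor in both lines, 9 of them without a read in any library. Of the 38 members above the floor in a line 22, or 57.9%, did not overlap between lines, beside 50.4% of the 14098 genes of the table above the floor in a line and the 15.1% of all genes called.

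Summed over all FOX genes, the level was 702, 822 and 811 RPM in the blank line and 639, 782 and 735 RPM in the CD90+ line, which overlapped.

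**Figure D5:**
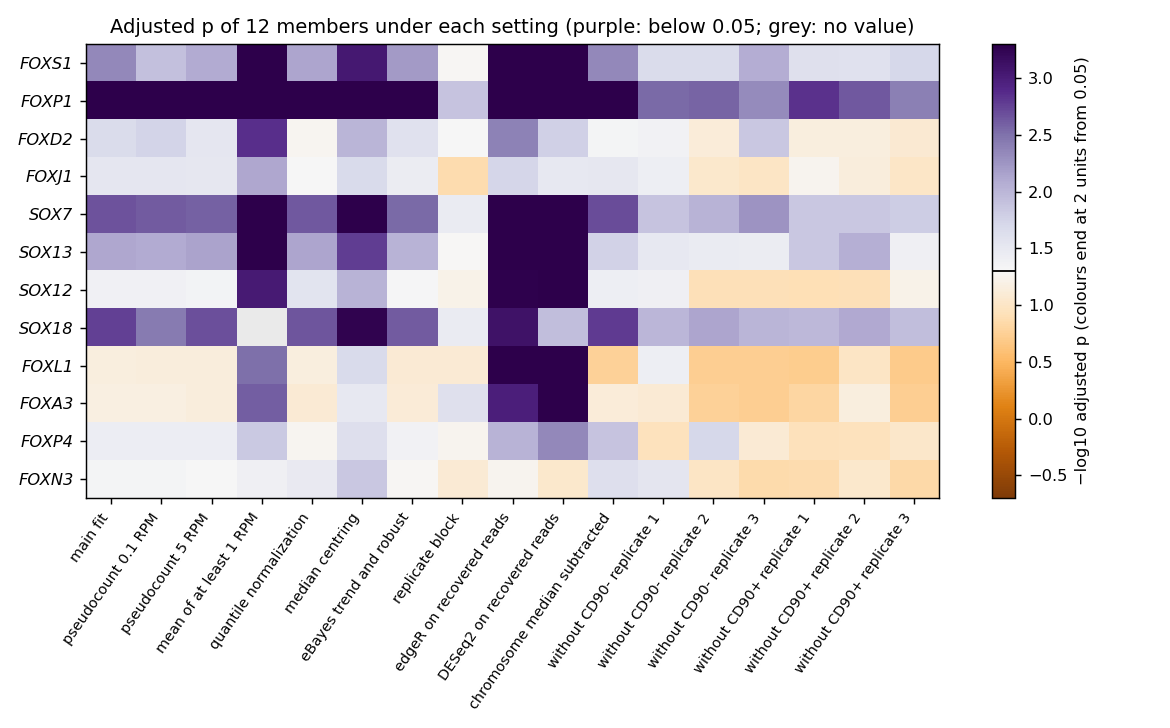
Colour gives minus log10 of the adjusted p for 12 FOX and SOX genes (rows) in the main fit and 16 other fits (columns), purple for an adjusted p under 0.05, orange for one above and light grey for no value. SOX7, FOXP1 and SOX18 are purple in every fit that gave a value, while FOXJ1, FOXD2 and SOX12 turn orange in most of the fits that leave out a library.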

How the data were processed

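Total RNA of 3 HuCCT1/CD90- and 3 HuCCT1/CD90+ libraries was reverse-transcribed, amplified with the Ion AmpliSeq Transcriptome panel and run on the Ion GeneStudio S5 Prime. Raw reads per amplicon were obtained by the authors with the ampliSeqRNA plugin, and the deposited values are RPM for 20811 genes, without a filter on low values. The submitters' processing notes name hg19, and the table gives no positions. One amplicon per gene means that a value depends on the isoforms that hold it. All values (100%, within 0.1 read) came out as whole reads once divided by the worth of 1 read, and these reads were used for edgeR and DESeq2. Without molecular identifiers, the floors allow for counting error alone. Pairs of libraries of a line all differed beyond sampling noise in a chi-square test.

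Log2(RPM + 1) values of all 20811 genes were fitted with limma 3.58.1 in R 4.3.3 (lmFit, then eBayes with its defaults and no block), two-sided, with Benjamini-Hochberg adjustment. Calls required an adjusted p no higher than 0.05 and a 1.5-fold difference or more. Where every library of a line had 3 reads or fewer, the fold is a lower bound against the highest such floor of that line in RPM. Folds are ratios of mean RPM. The members and the gene lists were chosen with earlier results of these data known, so no test was run over a list. Members called were described by library, other members averaging 10 RPM or more by mean or range, and of each list up to 2 rises and 2 falls, except where a count was completed.

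Libraries of both lines carry the numbers 1 to 3. After the mean of each line was taken off, libraries with the same number correlated over all genes with r = 0.209, 0.32 and 0.178, and the others with r from -0.294 to 0.0706. Deviations cancel within a line, so these correlations are not independent of each other. The main fit did not treat the numbers as pairs. On this check alone, a fit with the number as a block was an alternative. The others were an offset of 0.1 or of 5 RPM, a filter that kept the 12062 genes averaging 1 RPM or more, quantile normalization, centring on the median, eBayes with trend and robust settings, edgeR 4.0.16 (quasi-likelihood, filterByExpr, TMM, 12070 genes), DESeq2 1.42.0 (17006 genes), the chromosome's median taken off in HuCCT1/CD90+ (18589 genes placed), each library left out, an unadjusted p and a minimum fold of 2. The fits were tested on simulated data. Chromosomes are from GENCODE release 29. Promoter windows are from RefSeq on GRCh38.p14, whose table held windows for 46 members and for 4 of the 8 called. Values of some genes are not reported here, although the counts include them.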

Additional observations from a re-analysis of the deposited data

How the results depend on the processing

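Of 664 log2 differences of the 38 members above the floor under the 18 alternatives, 602 kept their sign and their side of the threshold, 26 were no longer called, 21 became called and 15, in 7 members, changed sign, 0 of these being called in either fit. With the chromosome median taken off FOXJ3 went to 0.1919 and FOXK1 to -0.4756. FOXD4L1 was at -0.0011 with an offset of 5 RPM, -0.0130 with median centring and -0.0436 in DESeq2. Leaving out 1 library gave -0.1265 to 0.3097 for FOXK1, -0.0943 to 0.4850 for FOXK2, -0.0761 to 0.2188 for FOXN2, -0.1685 to 0.1651 for FOXD4L1, -0.0749 to 0.1593 for FOXD4L5 and -0.3184 to 0.0738 for FOXO3B. The number of FOX genes called higher (1) was 0 with an offset of 5 RPM and with a minimum fold of 2. It was 2 with a mean of at least 1 RPM, with median centring, in edgeR, in DESeq2 and at an unadjusted p of at most 0.05, FOXA3 being the gene added, and 3 with the chromosome median taken off. The number of FOX genes called lower (3) was 5 with a mean of at least 1 RPM, with median centring, in edgeR and at an unadjusted p, FOXL1 and FOXE3 being the genes added. It was 1 with a minimum fold of 2. SOX genes called lower numbered 4 in the report and 2 with the replicate block. Leaving out 1 library at a time gave 0 to 1 FOX genes higher, 2 to 4 FOX genes lower, 3 to 4 SOX genes lower and 0 SOX genes higher. Among all genes 3138 were called, and 1868 to 2414 without 1 library and 1874 with a minimum fold of 2. The replicate block ended the calls of FOXJ1, FOXS1, SOX12, SOX13, GADD45A, PIK3R1, CDC25B, CENPA, ROBO4 and NRP2 and added FOXA3. It changed no other call among the members and the called genes of the 9 control, partner and target lists. Its effect on the cell type marker lists is not given here. Of the counts called higher or lower in the 9 lists, 253 stayed within 1.5 times and 71 did not. Genes under a few reads per library, 24 members among them, cannot show a difference at this depth, and 3 libraries a line leave intervals of over 1.5-fold for many members.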
